A study of Mus musculus with 16 samples.

Results

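The transcripts described here are 9 genes of the actin cytoskeleton in eosinophils of the mouse duodenum: Actb, Arpc3, Arpc1a, Arpc1b, Coro1a, Pfn1, Tmsb10, Rhoa and Mrtfa. They were taken by symbol from the authors' 2 deposited tables of the daily change, which together list 1413 genes, and they were chosen because their values in those tables were already known. Each choice therefore used the daily change itself, so the fold changes of these 9 genes are given as descriptions and no test is drawn from them. The study sorted eosinophils from the lamina propria, the connective tissue under the gut epithelium, into cells with high and cells with low surface CD11c, an integrin chain. Of each subset it collected 4 libraries at zeitgeber time 15 (ZT15, hours after lights on; PM in the sample titles) and 4 at ZT3 (AM), 16 libraries of 1000 cells in all. The labels give no genotype, strain, age or sex, and name no treatment other than the time of isolation. Surface CD11c and time are thus the only differences between the 4 groups that the labels give, and any other difference is unknown. The labels do not say that libraries of a group came from separate mice, so part or all of the spread behind the deposited errors may be technical.

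Actin monomers assemble into filaments that push the cell membrane forward and carry tension. The ARP2/3 complex starts new filaments as branches on old ones, profilin and thymosins hold the pool of free monomers, coronins act at branches and their turnover, and the GTPase RhoA turns on contraction through the ROCK kinases and linear filaments through formins. MRTF-A, the product of Mrtfa, is held inactive by free actin monomers and works with the transcription factor SRF on many cytoskeletal genes when that pool shrinks. Eosinophils use this machinery to migrate through tissue and to release granules.

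Each table lists only genes called by the authors at an s-value under 0.05, the s-value being how often the sign is expected to be wrong among the genes ranked at least as high. A gene absent from a table was not called or not tested, and its level was not analysed here. The tables gave 1 fold change per gene and no value for any single library, so the spread is shown by the posterior standard deviation (SD) that the authors attached to each shrunken log2 fold change. There were 172 genes in the CD11c-high table and 1340 in the CD11c-low table. Of 18 eosinophil identity markers, 0 were listed in the CD11c-high table and 6 in the CD11c-low table, 3 higher and 3 lower at ZT15. In the authors' deposited table the higher ones were Alox15 (mean normalised count 4887), Csf2rb (2381) and Siglecf (1633), and the lower ones Adgre1 (2776), Adgre4 (1227) and Id2 (136). The other 12 markers could not be checked, since uncalled genes are not listed. Of markers of other cells, 0 of 60 were listed in the CD11c-high table and 5 of 60 in the CD11c-low table, namely Bank1, Ighm, Gzma and Cd68, which were higher, and Krt18, which was lower. Immunoglobulin segments were listed too, 8 in the CD11c-high table and 14 in the CD11c-low table. The 8 are not among the 60 markers. The 0 of 60 therefore does not show that transcripts of B or plasma cells were absent there. The part of these markers and segments in the changes below was not tested. In such samples fewer cells that carry a transcript and less of it per cell cannot be told apart.

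In each subset 4 of the listed actin and actin-regulator transcripts were lower at ZT15, and those that were higher encode coronin 1A and the ARPC1 subunits. In CD11c-high cells 5 of the 9 genes were listed, of which 4 were lower (Arpc3, Mrtfa, Tmsb10, Pfn1) and 1 was higher (Coro1a). Of all genes listed there, 45.9% were lower and 54.1% higher. In CD11c-low cells 7 were listed, 4 lower (Actb, Arpc3, Rhoa, Tmsb10) and 3 higher (Arpc1b, Coro1a, Arpc1a), against 47.8% lower and 52.2% higher over that table. Because the genes were chosen from these values, nothing is read from the counts. The listed genes split as 2 in the CD11c-high table alone (Pfn1, Mrtfa), 4 in the CD11c-low table alone (Actb, Arpc1a, Arpc1b, Rhoa) and 3 in both (Arpc3, Tmsb10, Coro1a). Of all 1413 genes, 99 were in both tables, which differ in length (172 genes for CD11c-high and 1340 for CD11c-low). Nothing is read from this split.

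**Figure D1:**
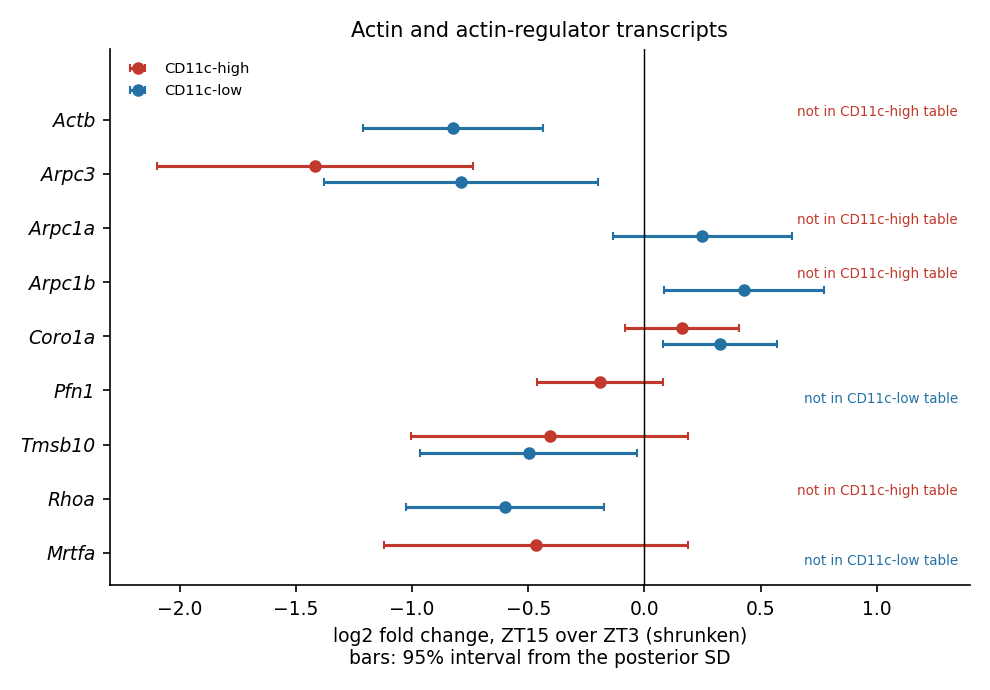
Shrunken log2 fold change at ZT15 over ZT3 of each gene in CD11c-high (red) and CD11c-low (blue) eosinophils, from the authors' deposited tables, with bars of the 95% interval. Arpc3 lies lowest in CD11c-high cells at -1.42, and the CD11c-high bars of Coro1a, Pfn1, Tmsb10 and Mrtfa and the CD11c-low bar of Arpc1a cross 0.

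Actb (ENSMUSG00000029580.15) encodes beta-actin, the cytoplasmic actin of most cells. In CD11c-low eosinophils its log2 fold change was -0.82 ± 0.20 in the authors' deposited table, with a 95% interval (the posterior taken as normal) from -1.21 to -0.43 and an s-value of 1.48e-06. On the linear scale the shrunken estimate fell by 43.5% at ZT15 relative to ZT3. The authors' deposited table gives it a mean normalised count of 50146, which was 4.06% of the sum over all 1340 listed genes. Per kilobase of its 1920-base transcript it stood at 26118, the highest of the 1269 listed genes with a transcript length, so Actb leads the table per length as well as in total. None of the 5 other actins of the list (Actg1, Acta1, Acta2, Actc1, Actg2) was listed in either table. The treatment of reads shared between Actb, its pseudogenes and Actg1 is not given in the sources used, and the Actb value is uncertain to that extent.

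Arpc3 (ENSMUSG00000029465.15) encodes a small subunit of the ARP2/3 complex and is one of the genes listed for both subsets. In the authors' deposited tables its log2 fold change was -1.42 ± 0.35 in CD11c-high cells (s-value 9.06e-06) and -0.79 ± 0.30 in CD11c-low cells (s-value 0.000645). These are shrunken changes of -62.5% in CD11c-high cells and -42.1% in CD11c-low cells at ZT15. By size of change, Arpc3 ranked 1 of the 93 genes listed for both subsets in CD11c-high cells and 11 in CD11c-low cells, immunoglobulin and predicted genes left out. The RIKEN gene D030028A08Rik was kept among the 93, and it ranked 1 in CD11c-low cells. The difference between the subsets, CD11c-high minus CD11c-low, was -0.63 ± 0.46 on the log2 scale, and its 95% interval, -1.53 to 0.27, includes 0. Its SD treats the subsets as independent, as do the SDs of the same difference given below for Coro1a and Tmsb10, while the sample titles use the same numbers in both subsets and do not say whether these mark shared mice. Both estimates were also shrunken by an unknown amount in tables of their own, so that difference is a description only. The mean normalised count was 362 in the CD11c-high table and 437 in the CD11c-low table, which were normalised separately.

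The paralogs Arpc1a and Arpc1b encode alternative forms of the same ARP2/3 subunit, and ARPC1B is the main form of human blood cells. Both were listed in CD11c-low cells alone and both were higher at ZT15, the direction opposite to Arpc3. Arpc1b (ENSMUSG00000029622.17) had a log2 fold change of 0.43 ± 0.17 in the authors' deposited table (s-value 0.00132, mean normalised count 4069). Arpc1a (ENSMUSG00000029621.15) had one of 0.25 ± 0.20 in the authors' deposited table (s-value 0.0384, mean normalised count 457), with a 95% interval from -0.14 to 0.63 that includes 0. Per kilobase of transcript the CD11c-low level was 1311 for Arpc1b and 280 for Arpc1a, so the blood-cell form was the more abundant of the pair. Reads shared between the paralogs could be split by the authors' counting, whose settings for them are unknown.

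The 2 paralogs also lie next to each other. In RefSeq (GRCm38.p6) there are 0 genes between them on chromosome 5 and their start sites are 30387 bases apart. On that chromosome lie 4 of the 9 genes (Actb, Arpc3, Arpc1a, Arpc1b). The share of all listed genes on it was not computed, so nothing is read from that count. The RefSeq promoter table matched 8 of the 9 genes with 13 start sites. Actb was the gene without a match, so its promoter was not searched. The 250 bases before each of the 13 start sites were searched on both strands for 4 motifs. The searched motifs were the CArG box, which SRF binds (by name, with 0 or 1 mismatch), the GC box GGGCGG, the TATA box TATAAA and the E-box CACGTG, to which the clock factors CLOCK and BMAL1 bind. The submitters' processing notes name GRCm39, so the coordinates below belong to the RefSeq table alone. The windows of these 3 ARP2/3 subunit genes are printed because these subunits of one complex moved in opposite directions in CD11c-low cells. Capitals mark the CArG-like stretch with 1 mismatch in Arpc1a and the GC boxes, on either strand, in Arpc1b, while Arpc3 held no match.
Arpc3, chr5:122391628-122391877 (+ strand): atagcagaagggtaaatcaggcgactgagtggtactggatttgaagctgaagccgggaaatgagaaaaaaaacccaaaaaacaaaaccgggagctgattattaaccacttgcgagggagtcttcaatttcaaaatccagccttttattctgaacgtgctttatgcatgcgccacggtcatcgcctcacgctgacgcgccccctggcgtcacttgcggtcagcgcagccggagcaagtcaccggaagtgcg
Arpc1a, chr5:145083619-145083868 (+ strand): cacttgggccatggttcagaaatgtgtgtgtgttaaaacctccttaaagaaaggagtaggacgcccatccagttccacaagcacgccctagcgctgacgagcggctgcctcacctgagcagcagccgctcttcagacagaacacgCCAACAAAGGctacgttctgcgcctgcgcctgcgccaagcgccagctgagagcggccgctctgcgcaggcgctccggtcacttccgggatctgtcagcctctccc
Arpc1b, chr5:145114006-145114255 (+ strand): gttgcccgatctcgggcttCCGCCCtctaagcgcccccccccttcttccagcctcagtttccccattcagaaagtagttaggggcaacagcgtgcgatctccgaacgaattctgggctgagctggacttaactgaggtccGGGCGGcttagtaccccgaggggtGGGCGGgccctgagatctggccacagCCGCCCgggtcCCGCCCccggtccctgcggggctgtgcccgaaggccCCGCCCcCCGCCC

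The exact CArG box was in 0 of the 13 windows, none of which belongs to Actb, and in 1.47% of all 32851 promoters of that table. With 1 mismatch allowed it was found in 2 of the 13 windows, Arpc1a (its first base 105 bases before the start) and Mrtfa (124 bases before), against 18.6% of all promoters. The GC box was in 7 of the 13 windows, 1 of them that of Arpc1b, which held 7 GC boxes, none overlapping another motif searched. At least 1 GC box was in 32.7% of all promoters, in 53.3% of those of genes higher and in 61.0% of those of genes lower in the CD11c-low table. The TATA box was in 12.4% and the E-box in 6.02% of all promoters, and in 0 of these 13 windows. Matches are descriptions of letters and not binding sites, and a window without a match says only that those letters are not in it.

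Apart from the ARPC1 paralogs, the listed subunits of the ARP2/3 complex had the direction of Arpc3. Of 10 genes of the complex, 1 was listed in CD11c-high cells, Arpc3, and 7 in CD11c-low cells, 5 lower and 2 higher. Of all 296 genes of the actin lists, 2.36% were listed in CD11c-high cells and 15.9% in CD11c-low cells. Over all genes listed in CD11c-low cells 47.8% were lower, and no test was made of the complex. The lower ones besides Arpc3 were the actin-related proteins that form the first pair of a new filament, Actr2 (log2 fold change -0.35 ± 0.20) and Actr3 (-0.27 ± 0.13), in CD11c-low cells, as the authors' deposited table gives them. Arpc5 (-0.28 ± 0.13) and Arpc4 (-0.25 ± 0.16), further structural subunits, were lower too in the authors' deposited table. The subunits higher at ZT15 were thus the ARPC1 paralogs and no other, among the 7 listed. The median log2 fold change of the 7, over both directions, was -0.27. For the listed genes as a whole, medians were taken within each direction only, 0.36 among those higher and -0.39 among those lower. Those medians are therefore no background for the -0.27. Arpc2, Arpc5l and Actr3b were not listed.

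Among proteins that activate or oppose the complex, 1 of 29 was listed in CD11c-high cells and 4 of 29 in CD11c-low cells. Hcls1, a cortactin relative of blood cells that stabilises branches, was lower in both subsets, at -0.34 ± 0.24 in CD11c-high cells and -0.39 ± 0.21 in CD11c-low cells, as given by the authors' deposited tables. In CD11c-low cells, Abi1, a subunit of the WAVE complex that activates ARP2/3, was lower (-0.35 ± 0.19) and Cyfip1, another subunit of it, was higher (0.26 ± 0.22) in the authors' deposited table. Gmfb, whose product takes branches apart, was lower, at -0.35 ± 0.26, in the authors' deposited table.

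Coro1a (ENSMUSG00000030707.16), the coronin of blood cells, which binds filaments and ARP2/3, was higher at ZT15 in both subsets. In the authors' deposited tables its log2 fold change was 0.16 ± 0.12 in CD11c-high cells (s-value 0.0487) and 0.33 ± 0.13 in CD11c-low cells (s-value 0.000999). These are shrunken changes of 11.8% in CD11c-high cells and 25.3% in CD11c-low cells. Its CD11c-high s-value lay just inside the threshold of 0.05, and the 95% interval, -0.08 to 0.40, includes 0. The difference between the subsets, CD11c-high minus CD11c-low, was -0.16 ± 0.18 (95% interval from -0.51 to 0.18). Coro1a was abundant in both tables, with mean normalised counts of 3987 in the CD11c-high table (rank 5 of 172) and 8361 in the CD11c-low table (rank 21 of 1340). One more of the 7 coronins was listed, Coro1b, at 0.20 ± 0.17 in CD11c-low cells, as the authors' deposited table gives it. Its 95% interval, -0.13 to 0.52, includes 0.

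The monomer-binding proteins did not share a direction. Pfn1 (ENSMUSG00000018293.5) encodes profilin, which reloads monomers with ATP and feeds them to growing filaments, and was listed in CD11c-high cells alone. Its log2 fold change there was -0.19 ± 0.14 in the authors' deposited table (s-value 0.0349, mean normalised count 1523), and the 95% interval, -0.46 to 0.08, includes 0. Tmsb10 (ENSMUSG00000079523.9) encodes a thymosin that sequesters monomers, and its log2 fold change was -0.41 ± 0.30 in CD11c-high cells (s-value 0.0179) and -0.50 ± 0.24 in CD11c-low cells (s-value 0.00377) in the authors' deposited tables. Its difference between subsets was 0.09 ± 0.39 on the log2 scale (95% interval from -0.67 to 0.85), CD11c-high minus CD11c-low, so differences in either direction lie within the interval. The authors' deposited tables give Tmsb10 a mean normalised count of 127 in CD11c-high cells and 175 in CD11c-low cells. Per kilobase of its 690-base transcript this was 185 in the CD11c-high table (median of listed genes 133) and 254 in the CD11c-low table (median 116). Of the 11 genes of this list, 2 were listed in CD11c-high cells, both lower, and 4 in CD11c-low cells, 2 lower and 2 higher. In CD11c-low cells, Cap1, which recycles monomers with cofilin, was lower (-0.70 ± 0.22), and the twinfilin genes Twf1 (0.53 ± 0.21) and Twf2 (0.37 ± 0.23), whose products bind monomers and cap filament ends, were higher in the authors' deposited table. The 95% interval of Twf2, -0.09 to 0.82, includes 0.

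**Figure D2:**
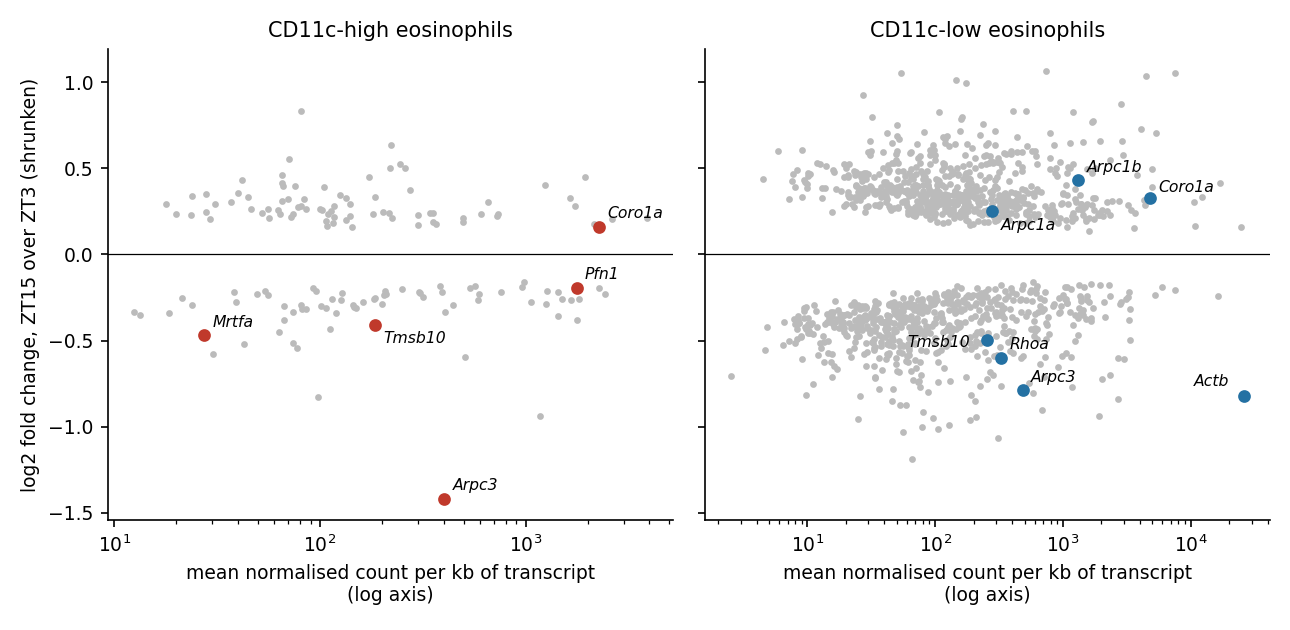
Shrunken log2 fold change at ZT15 over ZT3 against mean normalised count per kilobase of transcript (log axis) for listed genes with a transcript length, in CD11c-high (left) and CD11c-low (right) eosinophils; the named genes are coloured and the others grey, and 1 CD11c-high and 5 CD11c-low genes with changes beyond 2 in size are not drawn. Actb stands alone at the right edge of the CD11c-low panel at 26118 per kilobase, and Mrtfa at the left of the CD11c-high panel at 27.4.

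Rhoa (ENSMUSG00000007815.14), which encodes the GTPase RhoA, was listed in CD11c-low cells alone. Its log2 fold change was -0.60 ± 0.22 in the authors' deposited table (s-value 0.000384, mean normalised count 722), a shrunken change of -34.0% at ZT15. The 95% interval ran from -1.02 to -0.18. Downstream of RhoA, Rock2 (-0.47 ± 0.26), a kinase that drives contraction, was lower in CD11c-low cells. So were Rock1 (-0.25 ± 0.17) and the myosin light chain kinase gene Mylk (-0.50 ± 0.24), all per the authors' deposited table. The 95% intervals of Rock2 (-0.98 to 0.03) and Rock1 (-0.58 to 0.09) include 0, and that of Mylk (-0.97 to -0.02) does not. Rock1 was named after its value was seen. Ppp1cb, the catalytic subunit of the opposing myosin phosphatase, was lower in both subsets, at -0.32 ± 0.22 in CD11c-high cells and -0.40 ± 0.25 in CD11c-low cells, as given by the authors' deposited tables. Both of its 95% intervals include 0. The myosin genes of the myosin II and ROCK list that were called were higher at ZT15 in CD11c-low cells, namely Myo9b (0.50 ± 0.22), Myl12a (0.29 ± 0.14) and Myo1c (0.19 ± 0.16) in the authors' deposited table. Despite the name of the list, Myo9b and Myo1c encode myosins of other classes than II. The 95% interval of Myo1c, -0.13 to 0.50, includes 0. Of 25 genes of this list, 1 was listed in CD11c-high cells and 7 in CD11c-low cells, 3 higher and 4 lower. None of 13 formins was listed in either table.

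Mrtfa (ENSMUSG00000042292.19) was listed in CD11c-high cells alone. Its log2 fold change was -0.47 ± 0.33 in the authors' deposited table (s-value 0.0117, mean normalised count 114), and the 95% interval, -1.12 to 0.19, includes 0. At 27.4 counts per kilobase of its 4154-base transcript it was the scarcest of the 5 listed there, against 2282 for Coro1a and 1769 for Pfn1. Of the other genes of the MRTF-SRF pathway list, Elk4, which encodes an SRF partner of the other, mitogen-driven branch, had 0.39 ± 0.27 in the authors' deposited table and was higher in CD11c-low cells, and Srf and Mrtfb were not listed. Of 29 genes known as MRTF-SRF targets, 2 were listed in CD11c-high cells, 1 higher (Coro1a) and 1 lower (Pfn1). In CD11c-low cells 8 of the 29 were listed, 4 higher and 4 lower. Actb, Wdr1 (-0.43 ± 0.13), Arpc5 and Zyx (-0.40 ± 0.22) were lower, and Coro1a, Tln1 (0.40 ± 0.19), Flna (0.49 ± 0.27) and Coro1b were higher in the authors' deposited table.

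The wider machinery was also split. Among cofilin, capping and severing proteins, 4 of 31 were listed in CD11c-low cells, 1 higher and 3 lower. Wdr1, whose product speeds filament disassembly by cofilin, had the smallest s-value of these (7.36e-05) in the authors' deposited table, followed on the lower side by the cofilin phosphatase gene Ssh2 (-0.37 ± 0.19) and the capping protein gene Capza1 (-0.27 ± 0.20). Flii, of the gelsolin family, was higher (0.53 ± 0.28) in the authors' deposited table. Of 52 crosslinkers, tropomyosins and membrane anchors, 11 were listed in CD11c-low cells, 4 higher and 7 lower. The integrin-linked adaptor gene Lims1 (0.60 ± 0.16) joined the integrin activator talin (Tln1) and filamin A (Flna) on the higher side, and the filament-elongation gene Vasp (-0.35 ± 0.13), the focal adhesion gene Pxn (-0.45 ± 0.24) and the tropomyosin gene Tpm3 (-0.30 ± 0.15) were lower in the authors' deposited table. Neither list had a listed gene in CD11c-high cells.

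Over all 296 genes of the actin lists, 7 were listed in CD11c-high cells, 1 higher and 6 lower, where 45.9% of all listed genes were lower. In CD11c-low cells 47 were listed, 20 higher and 27 lower (57.4% lower, against 47.8% of all listed genes). Without the 9 genes described, these were 0 higher and 2 lower in CD11c-high cells and 17 higher and 23 lower in CD11c-low cells. In CD11c-low cells the median change was 0.36 among the 20 higher and -0.39 among the 27 lower, and over all listed genes it was 0.36 and -0.39. To 2 decimals the medians of the lists were those of the whole table, and no test was made of the lists.

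**Figure D3:**
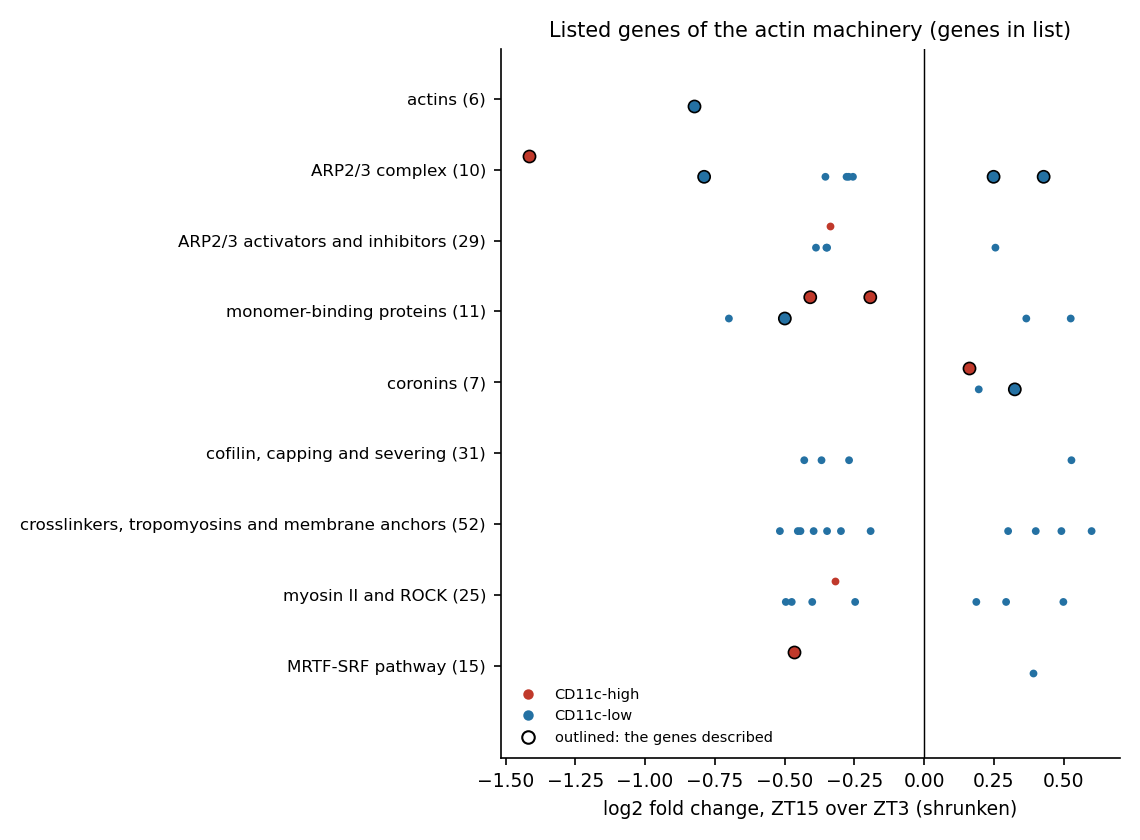
Shrunken log2 fold change at ZT15 over ZT3 of every listed gene of 9 actin cytoskeleton lists, none of which holds Rhoa (rows, with the number of genes in each list), in CD11c-high (red) and CD11c-low (blue) eosinophils; larger outlined points are the genes described. Both directions appear in most rows of the CD11c-low subset, and Arpc3 and Actb lie farthest to the left.

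Stricter readings of the same tables left fewer of the 9 genes called. At an s-value under 0.01, 1 of 5 passed in CD11c-high cells (Arpc3), where 22.1% of all listed genes did, and 6 of 7 in CD11c-low cells, where 38.7% did. With the false sign rate of the gene itself under 0.05, 3 of 5 passed in CD11c-high cells (45.3% of listed genes) and 6 of 7 in CD11c-low cells (52.7%). With a 95% interval that excludes 0, 1 of 5 passed in CD11c-high cells, and it was lower (4.07% of listed genes passed as lower and 6.98% as higher). In CD11c-low cells 6 of 7 passed by that reading, 2 higher and 4 lower (16.6% of listed genes passed as higher and 14.3% as lower). Arpc1a was the CD11c-low gene that failed each of these, and Pfn1 and Coro1a failed each in CD11c-high cells, while Arpc3 passed each in both subsets.

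The 3 genes listed for both subsets differed in which other genes lay nearest to them, measured as the Euclidean distance between pairs of log2 fold changes over the 92 other genes listed for both. With 2 values per gene this measures size and direction only. Nearest to Arpc3 were Laptm4a (distance 0.48), Homer1 (distance 0.60) and Lmnb1 (distance 0.94). The authors' deposited tables give Laptm4a, a lysosomal membrane protein gene, -0.94 ± 0.21 in CD11c-high cells against -0.77 ± 0.20 for CD11c-low cells. Tmsb10 lay within 0.03 of Fmr1, 0.10 of Rps15a and 0.11 of Agps, and Coro1a within 0.03 of Klf13, 0.06 of Ankrd11 and 0.09 of Pbxip1. The distances ignore the posterior SDs, and these genes were chosen by the same values, so nothing is read from which gene lies farther from its neighbours.

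**Figure D4:**
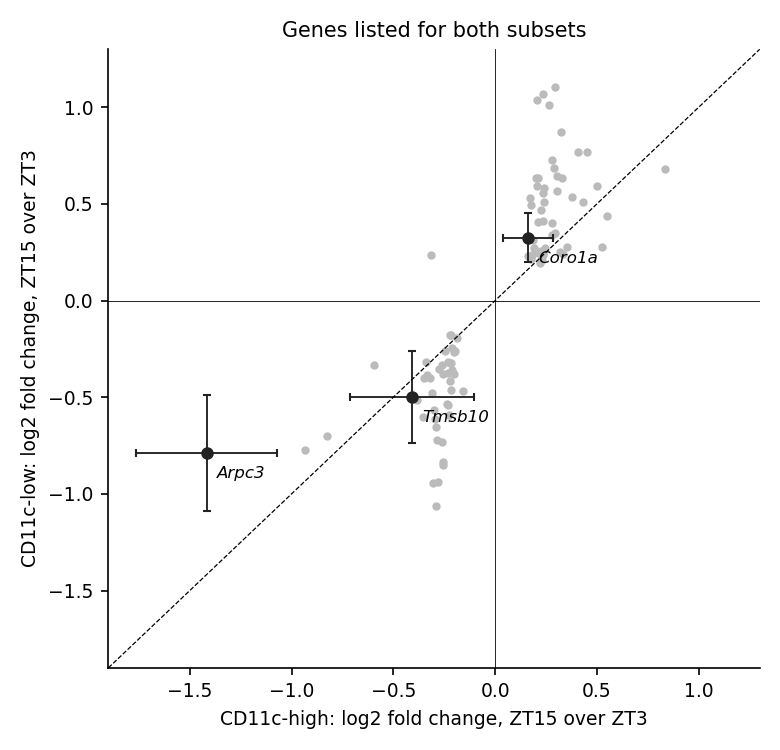
Shrunken log2 fold change at ZT15 over ZT3 in CD11c-high (horizontal axis) and CD11c-low (vertical axis) eosinophils of the 93 genes listed for both subsets, immunoglobulin and predicted genes left out and the RIKEN gene D030028A08Rik kept. Bars on the named genes are 1 posterior SD and the dashed line marks equal change. Arpc3 is drawn at -1.42 and -0.79, Tmsb10 at -0.41 and -0.50, and Coro1a at 0.16 and 0.33.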

How the data were processed

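The authors sequenced polyadenylated RNA from sorted eosinophils, which was amplified before Nextera XT library preparation, per the labels' protocols. The submitters' processing notes name STAR 2.7.10b, DESeq2 1.38.3 and the build GRCm39; the settings for counting, annotation and shrinkage are not given in the sources used. Per the file headers, each table holds a mean normalised count (a signal averaged over libraries and scaled by size factors), a log2 fold change, its posterior standard deviation and an s-value. The authors deposited s-values, an error rate of sign and not a p-value or q-value, and the log2 values that the authors deposited are shrunken. The direction, PM over AM, rests on the names of the tables. Depth per library is unknown.

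The 9 genes and the gene lists were chosen with earlier results of these data known. The rule for other named genes took every listed gene of the actin, ARP2/3, monomer-binding, coronin and MRTF-SRF pathway lists, and up to 3 per direction with the smallest s-values elsewhere; Rock1 and Zyx were named after their values were seen. The false sign rate of a gene was recovered from successive s-values, a step tested on simulated data. Transcript lengths are of the longest principal protein-coding transcript in GENCODE M21, available by gene identifier for 153 of 172 CD11c-high and 1269 of 1340 CD11c-low genes. Promoters come from RefSeq (GRCm38.p6). The plan allowed for tests on counts, and none was made because the tables hold comparisons. Tools were Python 3.11.15, pandas 2.3.3, NumPy 2.4.6, SciPy 1.17.1 and Matplotlib 3.10.9. Alternatives were s-values under 0.01, the gene's own false sign rate under 0.05, changes whose 95% interval excludes 0, mean normalised counts of at least 50, tables without immunoglobulin segments, and the lists without the 9 genes. Genes of 2 lists are counted in the totals over the actin lists and are otherwise, Rhoa apart, not reported here.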

Additional observations from a re-analysis of the deposited data

How the results depend on the processing

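No direction changed, because each alternative reads the same deposited estimates. In CD11c-high cells the count of the 9 genes called higher was 0, against 1 at an s-value under 0.05, at an s-value under 0.01, with the own false sign rate and with a 95% interval excluding 0, and the count lower was 1 at an s-value under 0.01 and 1 with a 95% interval excluding 0, against 4. In CD11c-low cells the counts stayed within 1.5 times of the main ones. For the actin lists, CD11c-high calls were 0 higher (main 1) under those 3 readings and without the 9 genes, and lower calls were 1 at an s-value under 0.01, 1 with a 95% interval excluding 0 and 2 without the 9 genes (main 6). CD11c-low calls were 10 higher and 17 lower at an s-value under 0.01, 12 higher with the own false sign rate, and 8 higher and 10 lower with a 95% interval excluding 0 (main 20 and 27). Of 12 single calls, 5 were lost at 0.01, 3 with the own false sign rate and 5 with a 95% interval excluding 0. The share of listed genes lower at ZT15 was 45.9 to 47.0% in CD11c-high and 46.6 to 47.8% in CD11c-low cells with and without immunoglobulin segments and scarce genes. No paired analysis was possible because the tables hold 1 comparison per gene and no column of a single library, and leaving out a replicate could not be run for the same reason. Depth per library is unknown, so what it limits could not be measured.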

Other observations

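The other branch of SRF control runs through ternary complex factors such as ELK4 and acts on immediate early genes. Of 11 such genes, 1 was listed in CD11c-high cells and 3 in CD11c-low cells. Fos, which encodes an AP-1 subunit, was higher at ZT15 in both subsets, with a log2 fold change of 0.41 ± 0.18 in CD11c-high cells and 0.77 ± 0.14 in CD11c-low cells, as given by the authors' deposited tables. Fosb (0.27 ± 0.23) was higher and Ier2 (-0.27 ± 0.14) lower in CD11c-low cells, as the authors' deposited table gives it. Egr1, Egr2, Junb and Srf were listed in neither table. Actb and Fos, both textbook SRF targets, thus had opposite signs in CD11c-low cells, and no test was made of that.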
